A study of Mus musculus with 8 samples.

Results

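The genes described here were 35 nuclear receptors, found by symbol in the table of normalized counts (1 row each) among 24451 genes, and compared between liver-specific Brap knockout (Brap LKO) and floxed control (Brap F/F) mice. Nuclear receptors are transcription factors that bind small lipid-soluble molecules such as fatty acids, oxysterols, bile acids, steroids, thyroid hormone and retinoic acid, or that have no known natural ligand and are then called orphans. Many bind DNA as heterodimers with a retinoid X receptor (RXR), recruit coactivators or corepressors, and in the liver they set the transcription of genes for lipid, bile acid, glucose and drug metabolism. Of the 35 members, 34 passed the filter on low values (a mean of 5 or more normalized counts) and were tested; Vdr, the vitamin D receptor, was not.

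The left liver lobe of 8 mice, 4 Brap LKO and 4 Brap F/F, was profiled by RNA sequencing of polyadenylated RNA. All 8 mice were 18 weeks old, on a C57BL/6 background, fasted for 6 hours and, per the study's methods, male. Both groups carried Brap alleles with loxP sites around exons 2 and 3, and the Brap LKO mice also carried Albumin-Cre, a transgene whose promoter is active mainly in hepatocytes, so that other cells of the liver largely keep the gene. BRAP is a ubiquitin ligase and scaffold that binds BRCA1 and restrains Ras to MAP kinase signaling, and the study asked how its loss alters the liver.

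The libraries held between 26280884 and 33313914 reads assigned to genes. The targeted gene gave normalized counts of 3641 to 4203 in Brap LKO and of 3994 to 4410 in Brap F/F livers, and it did not pass the test (-0.07 on the log2 scale, adjusted p = 0.631 by limma). Because the deleted exons make up 9.56% of the Brap-201 transcript and exon counts were not analysed here, gene counts did not test the knockout, and the groups are given as labelled. Brap F/F replicates 2 and 3 stood apart from the other Brap F/F livers: a chi-square statistic per degree of freedom between recovered reads was 25.1 between replicates 2 and 3 and 37.4 between replicates 1 and 4, but 114 to 173 across these pairs, against 12.3 to 49.5 among Brap LKO livers. Hepatocyte markers were below 0 on the log2 fold change scale in 7 of 8 genes, whereas cholangiocyte markers were above 0 in 7 of 7 tested genes, stellate cell and fibroblast markers in 10 of 11, endothelial markers in 8 of 8, Kupffer cell and macrophage markers in 9 of 10 and lymphocyte markers in 9 of 9. Red blood cell markers were above 0 in 1 of 5, and 1 of 5 pancreas markers was in the table (Cela1, log2 fold change -0.16). In bulk tissue, fewer cells of a type and less RNA per cell cannot be told apart.

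Few nuclear receptor transcripts passed the test between the groups. By limma, 1 of 34 tested members was higher in Brap LKO (Rarg, the gamma receptor for retinoic acid) and 0 were lower at an adjusted p under 0.05. This is 2.94% of the tested members, where 0.769% of the 15352 genes tested passed in either direction (0.664% higher and 0.104% lower). On recovered reads, edgeR also gave 1 higher and 0 lower members (0.795% of all genes; 0.703% higher and 0.0912% lower), and so did DESeq2 (3.7%; 2.73% higher and 0.97% lower). At an unadjusted p under 0.05 by limma, 3 members were higher (Rarg, Thra and Nr2f2) and 2 lower (Nr1h3 and Nr1i2), or 14.7% of members against 15.8% of all genes (9.23% higher and 6.59% lower). The members' share was close to that of all genes.

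The log2 fold change, Brap LKO minus Brap F/F on the log2(normalized count + 1) scale, was within 0.1 of 0 in 17 members and beyond 0.5 in 2, Rarg and Nr4a1. The 95% interval stayed within 0.5 of 0 in 20 members, and larger changes lay outside it for these genes. It reached past 1 or -1 in 4 members (Nr0b2, Nr4a1, Pparg and Esr1), for which a log2 fold change of 1 could not be told from 0 with 4 livers a group. The log2 fold change was above 0 in 13 members and below 0 in 21, with a median of -0.02; over all genes tested, 48% were above 0 and 52% below, with a median of -0.01. This split depended on scaling. With TMM factors 17 members (50%) were above 0, against 51% of all genes. Quantile normalization gave 21 (61.8%, against 45.8%). Scaling every liver to the same total gave 27 (79.4%, against 78.45%), and by itself shifted the all-gene median to 0.15. With Brap F/F replicates 1 and 4 alone as controls, 22 were above 0 (64.7%, against 48.2%).

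**Figure D1:**
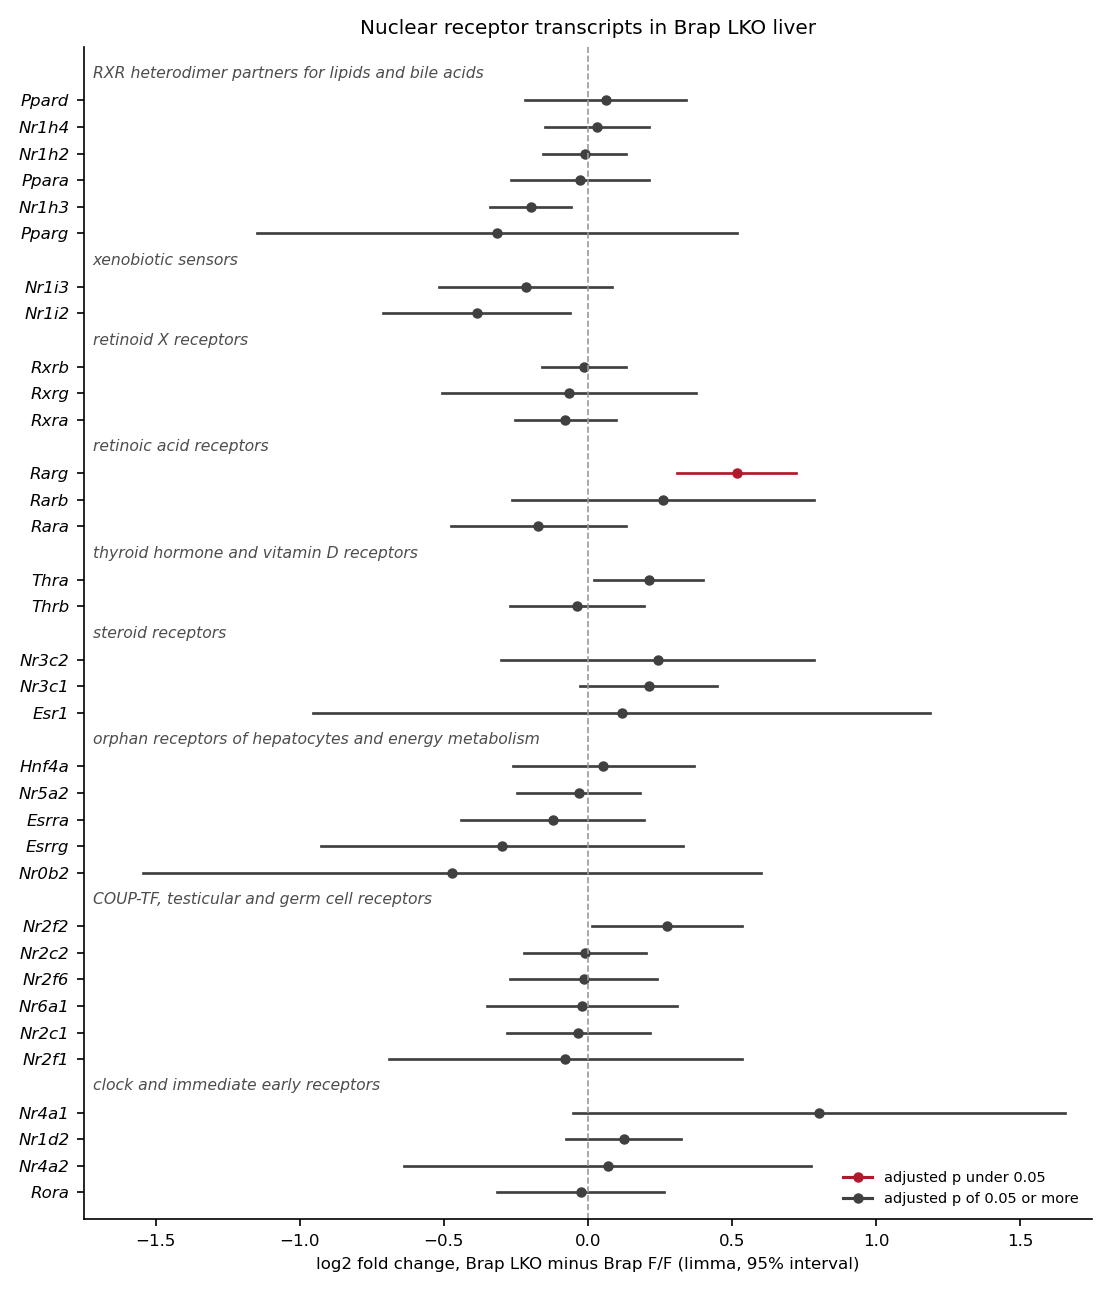
Log2 fold change (x axis, Brap LKO minus Brap F/F) of the 34 tested nuclear receptors (y axis), grouped by role, with points for the limma estimate and lines for its 95% interval, from 4 livers a group. Rarg, in red, was the member with an adjusted p under 0.05; the intervals of Nr0b2, Esr1, Pparg and Nr4a1 were the widest.

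The retinoic acid receptors bind retinoic acid, the active form of vitamin A, as heterodimers with RXR. In the order of the replicate numbers, which is kept for every gene below, Rarg had 236, 212, 243 and 233 normalized counts in Brap LKO and 155, 154, 172 and 164 in Brap F/F. Every Brap LKO liver lay above every Brap F/F liver. The means were 231 ± 13.1 (SD, n = 4) and 161 ± 8.72 (SD, n = 4), and the log2 fold change was 0.52 (SE 0.0914, 95% interval 0.31 to 0.72, adjusted p = 0.0444 by limma). A two-sided exact permutation test of the 70 arrangements of the livers gave p = 0.0286, the smallest it can give. Groups did not overlap in 2 of 34 members (5.88%; Rarg above and Nr1h3 below), against 9.87% of all genes tested (5.48% above and 4.39% below).

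The call for Rarg depended on the fit. On recovered reads its adjusted p was 0.0418 with edgeR and 0.00116 with DESeq2, and with equal totals it was 0.0124 by limma. The log2 fold change lay between 0.49 and 0.56 when each liver was left out in turn, but the adjusted p from limma lay between 0.0494 and 0.151 and passed in 1 of 8 such fits, that without Brap F/F replicate 4. With Brap F/F replicates 1 and 4 alone as controls, the log2 fold change was 0.53 and the adjusted p 0.0757. Among livers with lower numbers in their labels (3 Brap LKO, 1 Brap F/F) the difference was 0.57, and among those with higher numbers (1 Brap LKO, 3 Brap F/F) it was 0.51. Markers of the non-hepatocyte cell types below mostly had log2 fold changes above 0. An unadjusted p under 0.05 by limma was found in 5 of 7 cholangiocyte markers and 5 of 11 stellate cell and fibroblast markers. It was found in 1 of 8 for endothelium, 3 of 10 for Kupffer cells and macrophages and 3 of 9 for lymphocytes (15.8% of all genes). By adjusted p, 1 cholangiocyte and 1 stellate cell or fibroblast marker passed higher (0.664% of all genes), and no marker of the other types did. Summed for each type, the markers overlapped between groups, and abundant genes weigh most in such a sum. Their summed normalized count was 8590 to 12912 in Brap LKO and 5724 to 9770 in Brap F/F livers for stellate cells and fibroblasts, 1910 to 3757 and 1130 to 2127 for cholangiocytes, 6843 to 9832 and 5823 to 8337 for endothelium, 5305 to 9684 and 5762 to 7841 for Kupffer cells and macrophages, and 404 to 655 and 284 to 407 for lymphocytes. Of the 60 markers in the table, 2 were at 0 in at least 1 liver, Cftr among them. The part of these cells in the Rarg result was not tested.

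Rara, the most abundant retinoic acid receptor in these livers, had 1047, 1078, 760 and 1050 normalized counts in Brap LKO and 1069, 1109, 936 and 1308 in Brap F/F livers, where the log2 fold change was -0.17 (adjusted p = 0.559 by limma). Rarb, which is itself induced by retinoic acid, had 116, 121, 122 and 65.5 in Brap LKO and 105, 73.2, 101 and 69.7 in Brap F/F livers (0.26, adjusted p = 0.61). The groups overlapped for both. Exons of Rarb overlap those of Top2b, a more abundant gene with means of 2048 and 1797 normalized counts, over 34.1% of their length on the opposite strand. As a share of the summed level of the 3 receptors per kb of exon, a quantity set within each liver and so independent of scaling, Rarg took 15.6 to 22.4% in Brap LKO and 10.9 to 14.8% in Brap F/F livers. Rara took 68.4 to 78.2% and 78.2 to 85.3%, and Rarb 4.04 to 9.14% and 3.77 to 7%. The share of Rarg did not overlap between the groups, and that of Rarb did. These values rest on the counts already given and were not tested.

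Rarg spans positions 102234938 to 102257517 of chromosome 15 (mm10, reverse strand), and no exon of another gene in GENCODE M21 overlaps its exons. The 250 bases before 1 of its 2 RefSeq transcription starts are shown because Rarg was the member past the threshold. The window, chr15:102257523-102257772 of GRCm38.p6, reverse strand, overlaps no annotated gene, and capitals mark TGACCT, which is AGGTCA, the hexamer that many nuclear receptors bind, on the other strand.
Rarg: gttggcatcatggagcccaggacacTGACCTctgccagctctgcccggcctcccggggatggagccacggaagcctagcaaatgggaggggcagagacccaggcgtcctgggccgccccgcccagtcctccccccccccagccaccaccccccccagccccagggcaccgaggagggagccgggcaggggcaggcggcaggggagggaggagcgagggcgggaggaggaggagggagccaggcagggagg
The match lies at -225 from the start, and the window holds 74.4% G and C, against a median of 52.4% over all RefSeq promoter windows of this length. On either strand, AGGTCA was found in 10 of 52 member windows (19.2%, 9 of 33 members with a window) and in 14% of 32851 windows. AGAACA, a hexamer that some steroid receptors bind, was found in 3 member windows (5.77%) and 16.1% of all windows. GGAATG, which TEAD factors of the Hippo pathway bind, was found in 7 (13.5%) and 12.6%. CACGTG, the E-box of clock factors, was found in 4 (7.69%) and 6.02%. The Rarg window held none of these other letters. A match is a description of the letters and not of binding.

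The lipid and bile acid receptors pair with RXR. The LXRs bind oxysterols and induce genes of cholesterol export and fat synthesis, FXR binds bile acids, and the PPARs bind fatty acids. Nr1h3, which encodes LXR alpha, had 2419, 2694, 2435 and 2627 normalized counts in Brap LKO and 3008, 3007, 2830 and 2832 in Brap F/F livers. Every Brap LKO liver lay below every Brap F/F liver. The log2 fold change was -0.20 (SE 0.0628, 95% interval -0.34 to -0.06), and it did not pass the test across all genes (adjusted p = 0.181 by limma, 0.155 to 0.421 with each liver left out). A two-sided exact permutation test gave p = 0.0286. When every liver was scaled to the same total, the log2 fold change was -0.04, and the groups then overlapped.

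**Figure D2:**
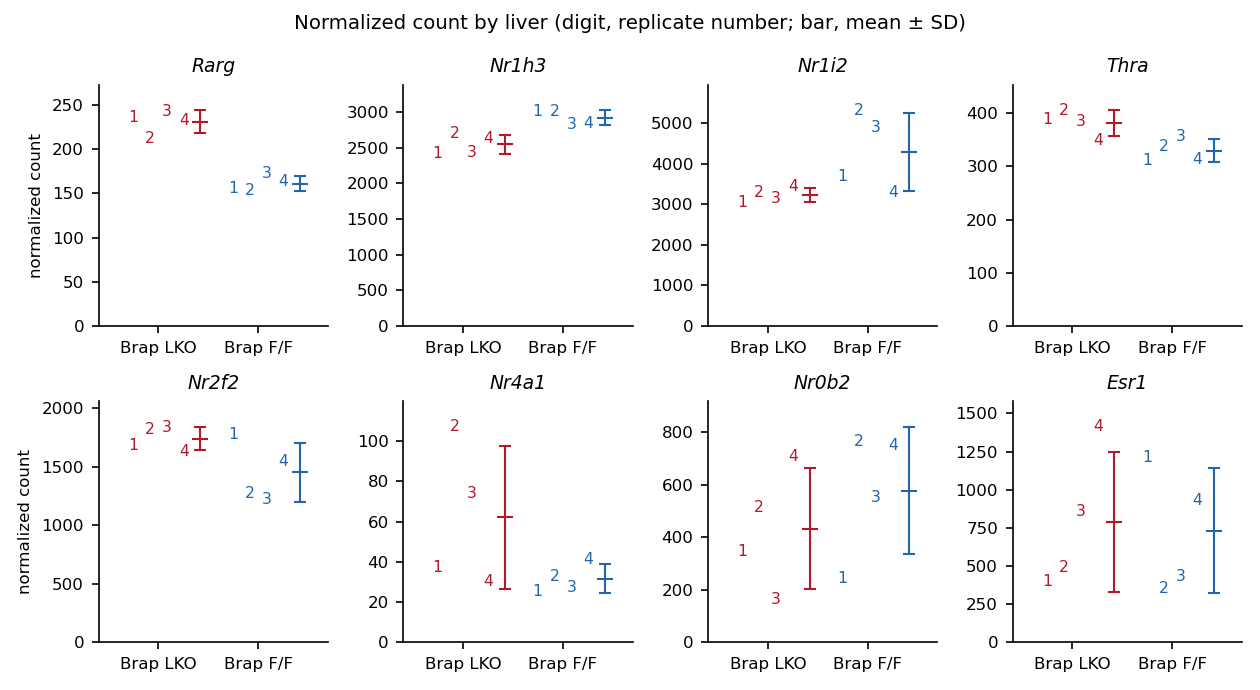
Normalized count (y axis, from 0) of 8 nuclear receptors in each liver, with digits for the replicate number and bars for the mean ± SD of 4 livers in Brap LKO (red) and Brap F/F (blue). Rarg and Nr1h3 did not overlap between the groups; Nr1i2 was high in Brap F/F replicates 2 and 3, and Nr0b2 and Esr1 spread widely within both groups.

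Nr1h2, which encodes LXR beta, was even across livers, with 1179 to 1347 normalized counts in Brap LKO and 1217 to 1305 in Brap F/F (log2 fold change -0.01, 95% interval -0.16 to 0.13). Nr1h4, which encodes FXR, had 5483, 5450, 6120 and 5164 in Brap LKO and 6035, 5319, 5305 and 5074 in Brap F/F livers (0.03, -0.15 to 0.21). Ppara, which drives fatty acid oxidation on fasting, had 7664, 7433, 7530 and 7049 in Brap LKO and 7109, 7395, 9403 and 6592 in Brap F/F livers (-0.03, -0.27 to 0.21). None of the 3 was past the threshold, and all 3 overlapped between the groups. Ppard, a broadly expressed PPAR, had 280 to 329 and 231 to 334 (0.06, -0.22 to 0.34). Pparg, which promotes lipid storage, had 272, 270, 292 and 220 in Brap LKO and 302, 340, 713 and 156 in Brap F/F livers. Its highest and its lowest value both came from Brap F/F livers, and its interval was wide (-0.32, -1.15 to 0.52). The sign turned to 0.06 without Brap F/F replicate 3 and to 0.27 with replicates 1 and 4 alone as controls, and without replicate 4 the value was -0.67. Per kb, Ppara made up 93.7% ± 0.427 (SD, n = 4) of the summed PPAR level in Brap LKO and 92.6% ± 2.26 (SD, n = 4) in Brap F/F livers.

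The RXRs are the common partners of these receptors. Rxra had 18818, 18686, 18392 and 18279 normalized counts in Brap LKO and 19869, 17887, 19887 and 20806 in Brap F/F livers. Replicate 2 of Brap F/F lay below all Brap LKO livers and its other replicates above them. The log2 fold change was -0.08 (95% interval -0.25 to 0.10, adjusted p = 0.644 by limma), and it was 0.08 with quantile normalization and with equal totals. Rxrb had 944 to 1061 in Brap LKO and 982 to 1081 in Brap F/F livers (-0.01, -0.16 to 0.13), and Rxrg 110 to 162 and 122 to 215 (-0.07, -0.51 to 0.38). Per kb, Rxra made up 91.5% ± 0.438 (SD, n = 4) of the RXR level in Brap LKO and 91.7% ± 0.546 (SD, n = 4) in Brap F/F livers.

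The xenobiotic sensors PXR (Nr1i2) and CAR (Nr1i3) induce cytochrome P450 enzymes and transporters in response to drugs and bile acids. Nr1i2 had 3037, 3300, 3147 and 3440 normalized counts in Brap LKO and 3698, 5319, 4902 and 3289 in Brap F/F livers. Brap F/F replicates 2 and 3 lay above all other livers, and replicate 4 lay within the Brap LKO range. For Nr1i2 the log2 fold change was -0.39 (SE 0.144, 95% interval -0.71 to -0.06, adjusted p = 0.25 by limma), and it was -0.11 with Brap F/F replicates 1 and 4 alone as controls. Nr1i3 had 13069, 13635, 14353 and 11231 in Brap LKO and 18068, 17080, 13115 and 12939 in Brap F/F livers, where replicates 1 and 2 were high. Its log2 fold change was -0.22 (95% interval -0.52 to 0.08, adjusted p = 0.454). The exons of Nr1i3 overlap those of Tomm40l on the opposite strand over 3304 bases (74.9%), and Tomm40l itself had a mean of 334 and 338 normalized counts, far below Nr1i3.

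The thyroid hormone receptors regulate lipid and energy metabolism. Thra had 388, 405, 383 and 348 normalized counts in Brap LKO and 310, 338, 356 and 313 in Brap F/F livers. Brap LKO replicate 4 lay below Brap F/F replicate 3, and the other livers did not overlap. For Thra the log2 fold change was 0.21 (SE 0.0844, 95% interval 0.02 to 0.40, adjusted p = 0.277 by limma), and it was 0.37 with an adjusted p of 0.0454 when livers were scaled to the same total, where 3.12% of all genes passed and 2.99% were higher. Of its exon bases, 263 (5.7%) overlap exons of Nr1d1 on the opposite strand, a gene whose mean normalized count was 2474 in Brap LKO and 1463 in Brap F/F livers, and the part of shared reads in the Thra values was not tested. Thrb, the main thyroid hormone receptor of hepatocytes, had 1207 to 1544 and 1282 to 1657 normalized counts (-0.04, -0.27 to 0.19). Per kb, Thra made up 28.5 to 31.6% of the 2 receptors in Brap LKO and 25.3 to 28.1% in Brap F/F livers, which did not overlap; this share was looked at after the counts were seen and was not tested. Vdr had at most 2 reads in any liver, under the 3 reads taken as the limit of detection, so no difference was detectable at this depth.

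Among the steroid receptors, Nr3c1, which encodes the glucocorticoid receptor, had 2835 to 3662 normalized counts in Brap LKO and 2366 to 3163 in Brap F/F livers (log2 fold change 0.21, 95% interval -0.03 to 0.45, adjusted p = 0.367 by limma). Nr3c2, which encodes the mineralocorticoid receptor, had 503 to 747 and 357 to 824 (0.24, -0.30 to 0.78), with -0.14 when Brap F/F replicates 1 and 4 were the only controls. Esr1, which encodes estrogen receptor alpha, had 401, 488, 855 and 1411 in Brap LKO and 1210, 354, 429 and 928 in Brap F/F livers. Both groups held low and high livers, and the interval reached from -0.95 to 1.19 around a log2 fold change of 0.12. This value lay between -0.22 and 0.42 when each liver was left out in turn, so its sign rested on single livers.

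Among the orphan receptors of hepatocytes, Hnf4a, which maintains the hepatocyte program, had 24871, 23788, 22117 and 27651 normalized counts in Brap LKO and 20288, 26594, 28808 and 20118 in Brap F/F livers. Of the Brap F/F livers, replicates 1 and 4 lay below, 2 within and 3 above the Brap LKO range, and the log2 fold change was 0.05 (95% interval -0.26 to 0.37, adjusted p = 0.875 by limma). Nr0b2, which encodes SHP, a repressor without a DNA-binding domain that FXR induces, had 348, 514, 165 and 708 in Brap LKO and 245, 765, 552 and 752 in Brap F/F livers. It varied 4.64-fold between livers, and neither group was uniformly low (log2 fold change -0.47, 95% interval -1.55 to 0.60). Single livers moved this value over 1.5-fold: it was -0.07 without Brap LKO replicate 3, -0.77 without Brap LKO replicate 4, -0.84 without Brap F/F replicate 1 and -0.30 when Brap F/F replicate 2 or 4 was left out. It was 0.19 with a lower or higher label number as covariate. Nr5a2, which encodes LRH-1, a regulator of bile acid synthesis, had 2002 to 2450 and 2107 to 2658 (-0.03, -0.25 to 0.18). The estrogen-related receptors, which act with PGC-1 coactivators on mitochondrial genes, had log2 fold changes of -0.12 for Esrra and -0.30 for Esrrg with adjusted p-values of 0.694 and 0.625 by limma.

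The COUP-TFs and testicular receptors are orphans that mostly compete with other receptors for DNA. Nr2f6 had 2569, 2986, 2726 and 2899 normalized counts in Brap LKO and 3141, 2590, 2339 and 3314 in Brap F/F livers (log2 fold change -0.01, 95% interval -0.27 to 0.24). Brap F/F replicates 1 and 4 were the highest livers and replicate 3 the lowest, and its exons overlap those of Ocel1 (means of 220 and 217 normalized counts) over 54.4% of their length. Nr2f2, which encodes COUP-TFII, a factor also abundant in vessels and stroma, had 1685, 1817, 1835 and 1629 in Brap LKO and 1773, 1274, 1226 and 1543 in Brap F/F livers. Brap F/F replicate 1 lay within the Brap LKO range and the other Brap F/F livers below it (0.27, 95% interval 0.01 to 0.54, adjusted p = 0.298 by limma; 0.07 with Brap F/F replicates 1 and 4 alone as controls). Nr2c1, Nr2c2, Nr2f1 and Nr6a1 had log2 fold changes between -0.08 and -0.01, and exons of Mrps25 overlap those of Nr2c2 over 30.7% of their length. Of these members, Nr2f1 was the least abundant, at 13.5 to 29.7 normalized counts over the 8 livers.

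Of the clock and immediate early receptors, Nr1d2, which encodes the repressor REV-ERB beta, had 3176, 3023, 2914 and 2597 normalized counts in Brap LKO and 2516, 2456, 2787 and 2996 in Brap F/F livers (log2 fold change 0.12, 95% interval -0.08 to 0.32). The groups overlapped, since Brap LKO replicate 4 was lower than Brap F/F replicates 3 and 4. Rora, an activator of clock genes, had 2592 to 3020 in Brap LKO and 2411 to 3465 in Brap F/F livers (-0.03, -0.31 to 0.26). Nr4a1, which is induced within minutes by many stimuli, had 37.3, 107, 73.9 and 30.2 in Brap LKO and 25.1, 32.5, 27.3 and 41.2 in Brap F/F livers. Brap LKO replicates 2 and 3 were high and the other livers overlapped. Its log2 fold change, 0.80, was the largest among the members and did not pass the test (95% interval -0.05 to 1.66, adjusted p = 0.345 by limma). Without Brap LKO replicate 2 it was 0.48, below the 0.56 of Rarg in the same fit. Nr4a2 had 14.6 to 34.8 in Brap LKO and 14.7 to 28.5 in Brap F/F livers (0.07, -0.64 to 0.78). Thra, Nr2f2, Nr4a1, Esr1 and Pparg are given liver by liver because their values were seen to stand out, and Rara and Rarb because they are of the same family as Rarg.

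Levels can be compared between genes only per length. Per kb of the union of exons, mean normalized counts over the 8 livers were 5029 for Hnf4a, 3493 for Rxra, 3214 for Nr1i3, 2385 for Nr1h4, 1961 for Ppara, 1475 for Nr1i2, 1086 for Nr1h3, 946 for Nr2f6, 519 for Nr1d2 and 447 for Nr0b2. Hnf4a was above Rxra in 8 of 8 livers, Rxra above Nr1i3 in 6 of 8 and Nr1d2 above Nr0b2 in 5 of 8. Nr1h4 was above Ppara in 7 of 8, and Ppara above Nr1i2 in 7 of 8. Of these pairs, only Hnf4a and Rxra kept the same order in every liver. The order also depended on the length used: per kb of the transcript with the longest coding sequence, Nr1i3 led with 10033 and Hnf4a was next. Hnf4a took 21.9% ± 1.98 (SD, n = 4) of the summed member level in Brap LKO and 20.2% ± 2.77 (SD, n = 4) in Brap F/F livers. At the low end were Nr4a1, Nr4a2, Nr2f1 and Vdr.

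**Figure D3:**
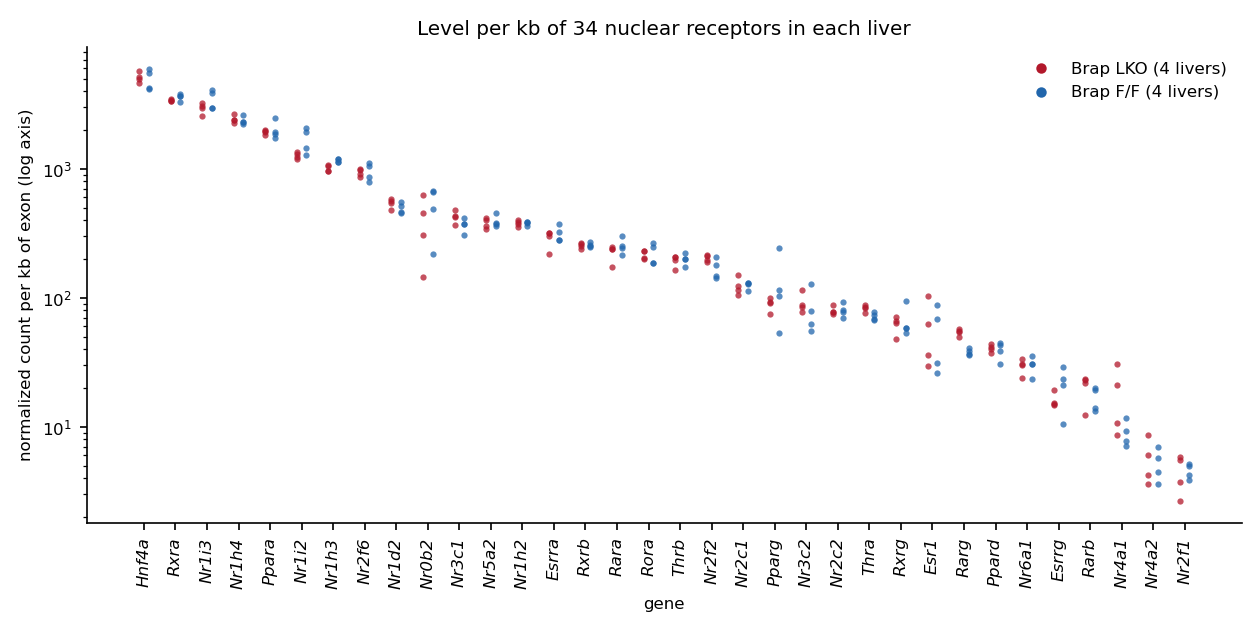
Normalized count per kb of exon (y axis, log scale) in each of 4 Brap LKO (red) and 4 Brap F/F (blue) livers for 34 nuclear receptors (x axis), in order of the mean over 8 livers. Hnf4a, Rxra and Nr1i3 led and Nr2f1 was lowest; Vdr, with livers at 0, is left out.

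The members differed in how evenly livers of a group expressed them. The SD of log2 values within groups had a median of 0.197 over tested members and 0.214 over all genes tested. It was lowest for Nr1h3 (0.0656), Rxrb (0.0659), Nr1h2 (0.0664) and Rxra (0.0668), and highest for Nr0b2 (0.838), Esr1 (0.837), Pparg (0.645) and Nr4a1 (0.628). In 6 of 34 members (17.6%), Brap F/F replicates 2 and 3 both lay above or both below all 6 other livers, against 26.2% of all genes tested: Nr1i2, Rora, Pparg and Esrra were high and Nr2f2 and Nr3c2 low. With Brap F/F replicates 1 and 4 alone as controls, 7 members did not overlap between the groups (20.6%; Hnf4a, Nr1h3, Nr2f6, Rarg, Rora, Rxra and Thra), where 26.9% of all genes tested did not, and 0 passed the test by limma.

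**Figure D4:**
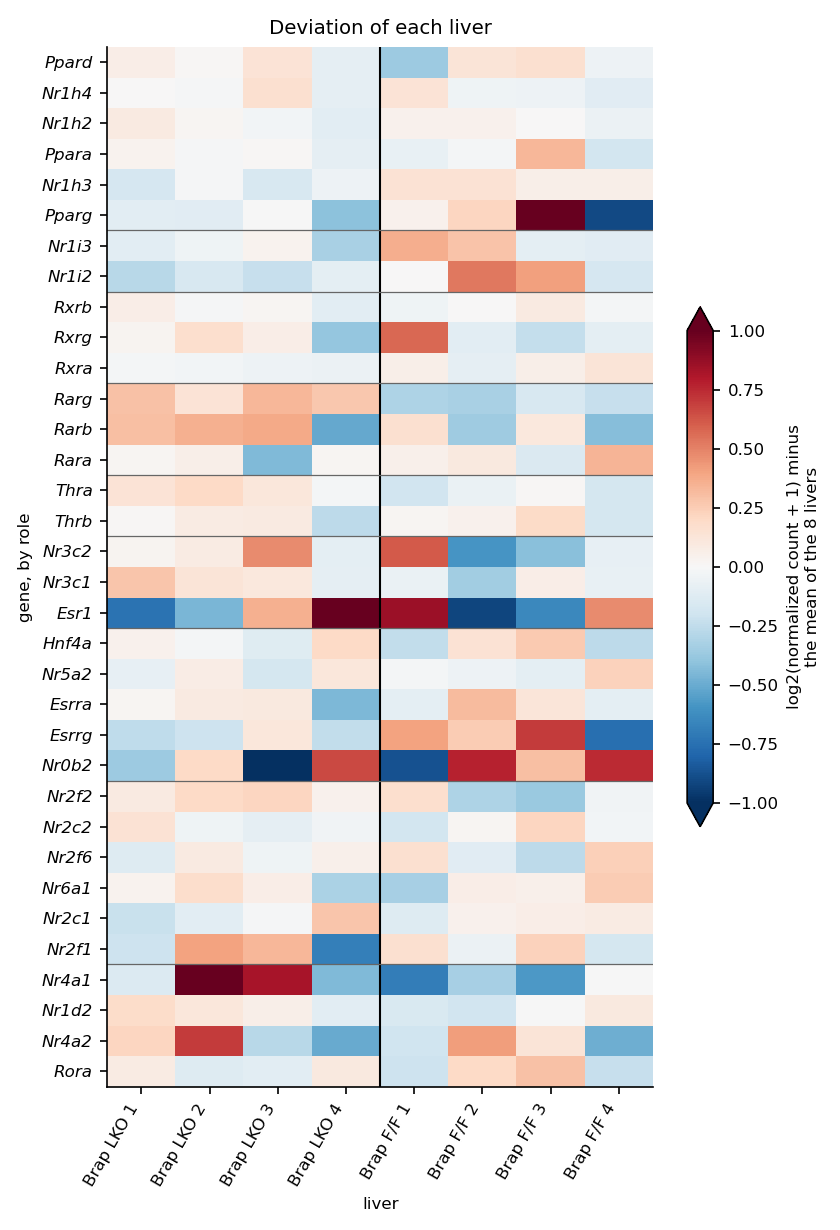
Deviation of log2(normalized count + 1) from the mean of the 8 livers (color, saturated at 1 and -1) for the 34 tested nuclear receptors (rows, by role) in each liver (columns, Brap LKO left of the line). Rarg was above its mean in all Brap LKO livers and below it in all Brap F/F livers; Pparg, Esr1, Nr0b2 and Nr4a1 had the strongest colors within groups.

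Receptor transcripts do not report receptor activity, so the cofactors, ligand enzymes and known target genes of the receptors were examined in the same fit. Of 198 different genes tested in 16 lists, 1 passed the threshold by limma (0.505%) and 36 had an unadjusted p under 0.05 (18.2%), near the 0.769% and 15.8% of all genes. edgeR called genes in 1 list and DESeq2 in 6, where they called 0.795% and 3.7% of all genes. The counts for single lists below are by limma. Of 28 coactivators and corepressors, 14 were above 0 and 14 below, and none passed. Ncoa4, a coactivator that also carries ferritin to lysosomes, stood at -0.25 on the log2 fold change scale (adjusted p = 0.212). Of 22 ligand enzymes, none passed; Hsd11b1, which regenerates active glucocorticoid, had a log2 fold change of -0.41 and Srd5a1, a steroid reductase, one of 0.38. Of 13 other mouse nuclear receptors, 4 were tested, led by Nr1d1, which encodes REV-ERB alpha (0.83, adjusted p = 0.304), and Esrrb (-0.72, adjusted p = 0.409).

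Target genes of CAR and PXR were the list with a call. Cyp2c37, a cytochrome P450 that metabolizes fatty acids and drugs, was lower in Brap LKO, with 3560, 3081, 3592 and 2468 normalized counts against 5692, 6488, 5629 and 4548 in Brap F/F livers. The groups did not overlap, and the log2 fold change was -0.82 (SE 0.142, adjusted p = 0.0417 by limma). With each liver left out in turn, the adjusted p lay between 0.0223 and 0.103 and passed in 1 of 8 fits, that without Brap F/F replicate 4. Of 18 tested genes of this list, 17 were below 0, with a median of -0.33, where 52% of all genes were. This count was 15 with equal totals, where 21.6% of all genes were below 0, and with Brap F/F replicates 1 and 4 alone as controls it was 11 of 17, with a median of -0.10 and Cyp2c37 at -0.70 (adjusted p = 0.0886). Hepatocyte markers, whose summed normalized count was 2197830 to 3076800 in Brap LKO and 2817910 to 4273190 in Brap F/F livers, moved in the same direction, and their part in these results was not tested.

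Of 30 targets of PPAR alpha, 27 were below 0 (median -0.24), and 0 passed by limma. At an unadjusted p under 0.05 by limma there were 7 (23.3%, against 15.8% of all genes). TMM factors gave 6 (20%, against 15.2%). Quantile normalization gave 1 (3.33%, against 13.9%), and equal totals gave 1 (3.33%, against 23.3%). With Brap F/F replicates 1 and 4 alone as controls there were 2 (6.67%, against 16.9%). The count below 0 was 26 with TMM factors (49% of all genes) and 25 with quantile normalization (54.2%). It was 21 with equal totals, a setting in which 21.6% of all genes were below 0. With Brap F/F replicates 1 and 4 alone as controls it was 24 (51.8% of all genes). Ucp2, a mitochondrial carrier, at 0.51, and Angptl4, an inhibitor of lipoprotein lipase, at -0.34, had the lowest p-values (adjusted p of 0.115 and 0.181). Of 16 glucocorticoid receptor targets, 14 were below 0 (median -0.35) and none passed; Tat, which degrades tyrosine, stood at -0.86 and Zbtb16 at -1.26. That direction rested on Brap F/F replicates 2 and 3: with replicates 1 and 4 alone as controls, 5 of 16 were below 0 and the median was 0.11. Of 10 targets of the estrogen-related receptors, 9 were below 0 (median -0.18), 6 with equal totals and 6 with Brap F/F replicates 1 and 4 alone as controls, and Acadm (-0.38) and Sdhb (-0.26) had the lowest p-values. Of 14 targets of HNF4A, 10 were below 0 (median -0.12), 5 with equal totals and 9 with Brap F/F replicates 1 and 4 alone. Among these targets, Ugt2b1 (0.43) and Apoa4 (0.76) had the lowest p-values.

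The other lists were more evenly split or held few genes. Of 12 LXR targets, 5 were above 0 (median -0.04), with Arl4c at 0.81 and Abcg1, a cholesterol exporter, at 0.40. Of 9 FXR targets, 5 were above 0, with Slc10a1, the bile acid importer, at -0.43 and Cyp7a1, the rate-limiting enzyme of bile acid synthesis, at 1.32 (adjusted p of 0.18 and 0.277 by limma). The FXR list was not split into genes that the receptor raises and genes that it lowers, so its count gives no direction of FXR activity. Of 8 targets of PPAR gamma, 4 were above 0, with Lpl, lipoprotein lipase, at 1.07 (adjusted p = 0.0709) and Plin4 at -1.22. Brap F/F replicates 1 and 4 alone as controls gave 10 of 12 LXR targets and 7 of 8 PPAR gamma targets above 0. Of all genes, 48.2% were above 0 in that fit. The PPAR gamma targets then had a median of 1.09 and 1 call (Cidea, named after its values were seen). Over all 15375 genes of that fit, 125 passed higher and 48 lower. With equal totals, Lpl passed (adjusted p = 0.0282 by limma), where 2.99% of all genes passed higher and 0.13% lower. Of 6 retinoic acid receptor targets, 3 were above 0 and 1 had an unadjusted p under 0.05. Of 6 thyroid hormone receptor targets, 2 were above 0, with Hr at 1.01 and Me1 at -0.43, and Atp2b1 was the vitamin D receptor target tested (0.00). Of 17 clock genes, 7 were above 0, with Bhlhe41 at 0.78 beside Nr1d1, and of 10 immediate early genes 6 were, with Egr1 at 1.09 and Ier2 at 0.32. In the fit with the authors' size factors and all 8 livers, none of the genes named for these lists passed the threshold by limma.

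**Figure D5:**
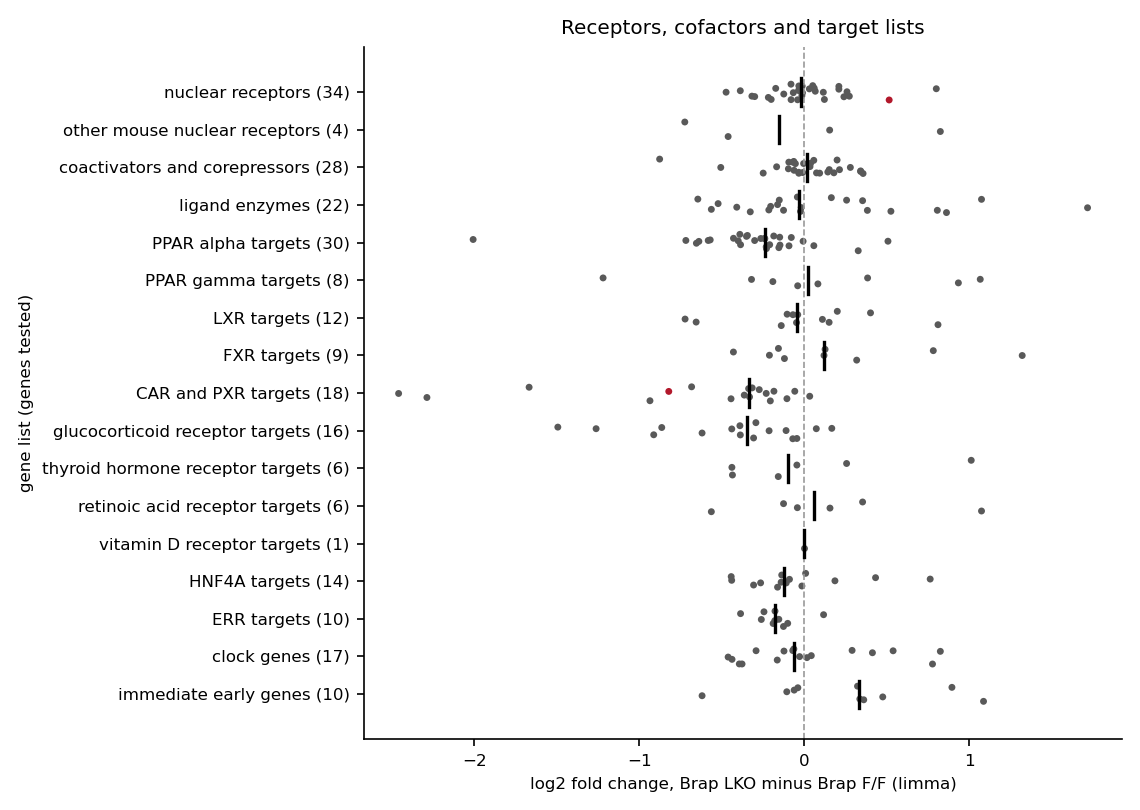
Log2 fold change (x axis, Brap LKO minus Brap F/F) of each tested gene, as a point, in the nuclear receptors and 16 further lists (y axis, number tested in parentheses), with a vertical bar at each median and red for an adjusted p under 0.05. Rarg and Cyp2c37 are red; the medians of CAR and PXR targets and of glucocorticoid receptor targets lie at -0.33 and -0.35.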

How the data were processed

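RNA of 8 livers, 4 of each genotype, was compared; groups and replicate numbers came from the labels, which give each liver a number of its own. Per the labels, libraries were made with a polyadenylated RNA kit. The authors aligned reads to mm10 with STAR 2.6.0c and deposited normalized counts, a signal equal to the reads of a gene divided by a DESeq2 size factor of the liver. The counting tool, annotation release and use of strand were not given in the sources used here, so genes with overlapping exons on either strand may share reads. A further deposited table holds the authors' comparison (mean, log2 fold change, standard error, p-value and adjusted p-value) and was not used. All values (100% at a tolerance of 1e-06) were whole multiples of the smallest value above 0 in their column, so whole reads were recovered.

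The 35 members and all gene lists were chosen with earlier results of these data known. The main test was limma 3.58.1 (lmFit, eBayes with trend) on log2(normalized count + 1) for genes with a mean of at least 5, without covariates, with Benjamini-Hochberg adjustment over 15352 genes and a threshold of 0.05, two-sided. Fold changes on this scale are understated for low genes. edgeR 4.0.16 (quasi-likelihood, which called 0.795% of genes), DESeq2 1.42.0, other pseudocounts, filters, scalings and weights, a replicate block, a lower or higher label number as covariate and leaving out each liver were alternatives; leaving out Brap F/F replicates 2 and 3 together was added after the data were seen. The fitting script was tested on simulated data. Members were described liver by liver where they passed the test, did not overlap or were among the 10 highest per kb, and some others were chosen after their values were seen; from each list, the genes past the threshold or else the 2 with the lowest p-values were named, except for a few genes that are not reported here. Coordinates, lengths and overlaps came from GENCODE M21 (24430 rows matched) and promoters from RefSeq (GRCm38.p6; 33 of 35 members matched, Thra and Nr3c1 not). Depth was 26280884 to 33313914 reads per liver.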

Additional observations from a re-analysis of the deposited data

Results flagged for a closer look

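Values that lay far from the other 3 livers of their group were found in 5 of 68 groups of 4 livers by Dixon's test at its 95% critical value, where chance gives 1 in 20 groups, or 3.4. Rara was 760 normalized counts in Brap LKO replicate 3, where the nearest liver of the group had 1047. Rarb was 65.5 in Brap LKO replicate 4, below 116 in the nearest liver. Rxrg was 215 in Brap F/F replicate 1, above 134 in the nearest. Esrra was 959 in Brap LKO replicate 4, below 1332, and Esrrg was 119 in Brap LKO replicate 3, above 95.1.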

How the results depend on the processing

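Of 782 member log2 fold changes under 23 other settings, none of those called turned its direction, 762 stayed within the spread between livers on the same side of the threshold, 7 moved by more, 12 (all Rarg) lost the call and 1 (Thra, equal totals) gained it. The count of higher members was 0 without a filter (Rarg adjusted p = 0.0542 by limma), with quantile normalization (0.0841), with a lower or higher label number as covariate (0.0796) and with Brap F/F replicates 1 and 4 alone as controls (0.0757), 2 with equal totals, and 0 to 1 with each liver left out. Same-numbered livers correlated at -0.129, 0.00336, 0.196 and 0.292, and differently numbered livers at -0.293 to 0.199. These few values could not decide whether the numbers pair the livers. With the replicate block the count of higher members was 0 (Rarg adjusted p = 0.0808 by limma). Members that did not overlap numbered 2 to 5 with each liver left out (5.88 to 14.7%, against 11.7 to 17.4% of all genes; 5 when replicate 4 of either group was left out), 4 with equal totals (11.8% against 14.9%) and 7 with Brap F/F replicates 1 and 4 alone (20.6% against 26.9%). Over all genes, 102 were higher and 16 lower. The higher count was 62 with quantile normalization, 459 with equal totals, 185 with array weights, 448 with DESeq2, 283 at an adjusted p under 0.1 and 11 to 178 with each liver left out. The lower count was 9 at a minimum mean of 20, 39 with array weights, 48 with Brap F/F replicates 1 and 4 alone, 159 with DESeq2, 64 at an adjusted p under 0.1 and 4 to 54 with each liver left out. The cause was not tested. Nr2f1 and Nr4a2, the least abundant tested members, rest on few reads.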
